A study of Mus musculus with 6 samples.

Results

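Islr and Islr2 are neighbouring genes on mouse chromosome 9 that lie on the same strand and share part of their annotated first exons. They are 2 of the 55291 genes in the tables of this series. They were chosen by name, after their levels in this comparison were known, because Islr2 had 1 of the larger fold changes in tight skin (TSK) mice and Islr is its overlapping neighbour. Their values in TSK against wild-type (WT) skin are therefore given as a description, with no test.

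Shaved dorsal skin was taken from TSK mice and their WT littermates, 3 of each, and RNA was sequenced as 1 library per mouse. All mice were C57BL/6 and, by the labels, aged 6 to 8 weeks. The TSK mutation, which repeats an internal stretch of Fbn1 (fibrillin 1, a protein of microfibrils), was kept by crossing to C57BL/6, and living carriers are heterozygous because homozygotes die before birth. The labels give the mice as female, whereas the methods of the study describe males aged 8 weeks. Whole skin was used, so fewer cells of a type and less RNA per cell cannot be told apart.

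Islr (immunoglobulin superfamily containing leucine-rich repeat, also called meflin) encodes a small protein of leucine-rich repeats (LRRs) and 1 immunoglobulin domain that is attached to the cell surface or secreted. It marks mesenchymal stromal cells and fibroblasts, and it is known to bind the bone morphogenetic protein Bmp7 and the collagen cross-linking enzyme Lox. Islr2 (also called Linx) encodes a larger protein with the same pair of domain types and a membrane-spanning segment. It is known from developing neurons, where it binds the GDNF family receptor Ret and takes part in axon growth and guidance.

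The coordinates are those of the mm10 (GRCm38) genome, and transcripts were taken from the GENCODE M21 annotation of that build. Islr (ENSMUSG00000037206) spans chr9:58156268-58204306 on the minus strand and has 3 annotated transcripts. Islr2 (ENSMUSG00000051243) spans chr9:58196297-58204319 on the same strand and has 17. The span of Islr is long because of 1 transcript, Islr-203, which starts 13 bases downstream of the distal Islr2 start, within the first exon of Islr2. It reads through the second Islr2 exon, skips the Islr2 coding exon and ends in the coding exon of Islr. The other Islr transcripts, Islr-201 and Islr-202, start at positions 58159221 and 58158545 and share no exon with Islr2. A gap of 37075 bases separates the last base of Islr2 from the first base of Islr-201.

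The exon stretches common to both genes lie at chr9:58204219-58204306 (88 bases) and chr9:58201280-58201372 (93 bases), in the 5′ untranslated part of Islr-203. The distal stretch is reached by 3 of the Islr2 transcripts and the other by 16. Together they hold 181 bases, 6.74% of the 2686 bases of Islr exons and 3.06% of the 5921 bases of Islr2 exons. Of the 2636 stretches of 50 bases (the read length) in Islr transcripts, 133 were also found in Islr2 transcripts, 5.05% of the Islr stretches. The same 133 were 2.22% of the 6003 stretches in Islr2 transcripts. A single-end read from these stretches fits both genes.

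**Figure D1:**
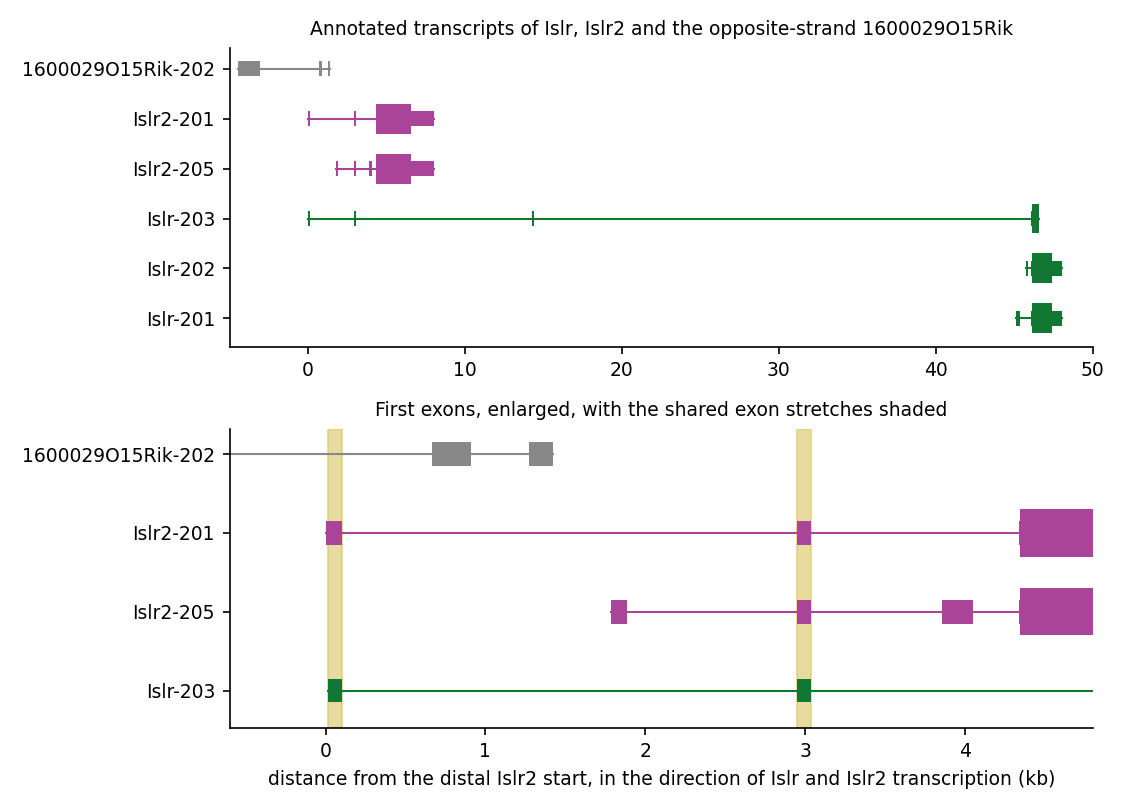
Transcripts of Islr (green), Islr2 (purple) and the opposite-strand pseudogene 1600029O15Rik (grey) by distance from the distal Islr2 start in kb, with coding exons drawn tall, other exons drawn short and introns as lines; 2 of the 17 Islr2 transcripts are shown. The lower panel enlarges the first exons and shades the 88 and 93 bases that Islr-203 shares with Islr2.

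Outside those exons the genes can be told apart by their letters. The coding sequence is 1284 bases long in Islr and 2235 bases long in Islr2. No stretch of 50 bases was common to the coding sequences, and the longest identical run in their alignment was 16 bases. The first 60 bases of each, read 5′ to 3′ from the GENCODE M21 transcripts, are shown because reads from the coding exons assign a fragment to 1 of the genes. Capitals mark the start codon.
Islr coding start: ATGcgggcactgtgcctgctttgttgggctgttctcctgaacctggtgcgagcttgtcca
Islr2 coding start: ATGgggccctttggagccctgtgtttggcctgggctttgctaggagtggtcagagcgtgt

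The RefSeq start of Islr and the distal start of Islr2 lie apart, although Islr-203 starts beside the distal Islr2 start and has nearly the same bases before it. The 250 bases before each start are shown 5′ to 3′ on the minus strand, from the RefSeq promoter table of GRCm38.p6, because both genes stood higher in TSK skin. They cover chr9:58158555-58158804 for Islr and chr9:58204320-58204569 for the distal Islr2 start. Common motifs were searched on both strands over 300 bases, from 250 before each start to 50 after. They were TATAAA for the TATA box, CCAAT for the box bound by NF-Y, GGGCGG for the GC box and TGANTCA for AP-1. The others were CANNTG for the E-box, GGAATG for TEAD factors, and GTCTAGAC together with CAGACAG for SMAD proteins. Capitals mark every match other than CANNTG.
Islr promoter: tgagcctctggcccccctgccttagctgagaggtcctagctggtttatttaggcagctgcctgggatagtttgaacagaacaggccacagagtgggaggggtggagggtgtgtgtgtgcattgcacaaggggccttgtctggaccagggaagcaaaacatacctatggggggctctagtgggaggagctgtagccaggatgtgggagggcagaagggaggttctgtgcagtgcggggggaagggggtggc
Islr2 promoter: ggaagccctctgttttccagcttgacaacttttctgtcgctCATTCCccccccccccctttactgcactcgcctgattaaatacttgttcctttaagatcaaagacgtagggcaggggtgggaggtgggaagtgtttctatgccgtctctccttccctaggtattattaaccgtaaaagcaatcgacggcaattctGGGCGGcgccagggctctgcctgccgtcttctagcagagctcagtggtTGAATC

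The Islr window held 1 E-box and no match of the other motifs. The distal Islr2 window held 1 GC box, 1 TEAD motif (read here on the other strand) and 1 AP-1 motif, whose last letter lies past the start. Only 3 of the 17 Islr2 transcripts reach the distal exon. Windows at the other Islr2 starts in the table, 58202534 and 58202344, held 1 E-box each, the latter also 1 CCAAT box, and no match of the other motifs. Of all 32817 promoters in that table, 35.6% held a GC box, 14.7% a TEAD motif, 7.81% an AP-1 motif and 72.3% an E-box. The remaining shares were 13.6% for the TATA box, 37.4% for the CCAAT box, 0.213% for GTCTAGAC and 7.73% for CAGACAG. These are matches of letters only. The printed 250 bases were 59.6% G or C for Islr and 52.4% for Islr2.

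Library totals ranged from 17561453 to 19219814 estimated counts. Fbn1 rose from 272 ± 14.2 counts per 1000000 (CPM) in WT to 1943 ± 377 in TSK (mean ± SD, n = 3 per group), or 2.54 ± 0.22 on the log2 scale (± SE; adjusted p = 0.0033 by edgeR), and each TSK library was above every WT library. The test covered 19971 genes. At an adjusted p below 0.05, TSK was higher for 542 (2.71%) and lower for 136 (0.681%), and 79.9% of the calls were thus higher. With scaling by library size alone that share was 94.8%, and the median log2 fold change of all genes moved from -0.03 to 0.25. Without WT 3 the counts fell to 45 and 15, and without WT 1 they were 713 and 547.

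Islr was low in WT skin and higher in each TSK mouse. In the deposited CPM values it stood at 8.20, 16.7 and 12.3 in WT 1 to 3, from estimated counts of 144, 313 and 224. In TSK 1 to 3 it stood at 29.6, 48.7 and 49.2 CPM, from counts of 539, 936 and 929. The groups did not overlap, and the lowest TSK library was 1.78 times the highest WT library. The means were 12.4 ± 4.23 and 42.5 ± 11.2 CPM (SD, n = 3 each), a ratio of 3.43, and the fitted log2 fold change was 1.46 (SE 0.32). Within WT the libraries spread more widely than within TSK relative to their mean, with WT 1 the lowest and WT 2 the highest.

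Islr2 was lower than Islr in every WT library and differed more between the groups. It stood at 2.52, 3.08 and 2.10 CPM in WT 1 to 3, from counts of 44.2, 57.8 and 38.1. In TSK 1 to 3 it stood at 24.0, 31.2 and 45.1 CPM, from counts of 437, 600 and 850. The lowest TSK library was 7.81 times the highest WT library, and TSK 3 was the highest of all. The means were 2.56 ± 0.492 and 33.4 ± 10.7 CPM (SD, n = 3 each), a ratio of 13.05, and the fitted log2 fold change was 3.41 (SE 0.27).

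**Figure D2:**
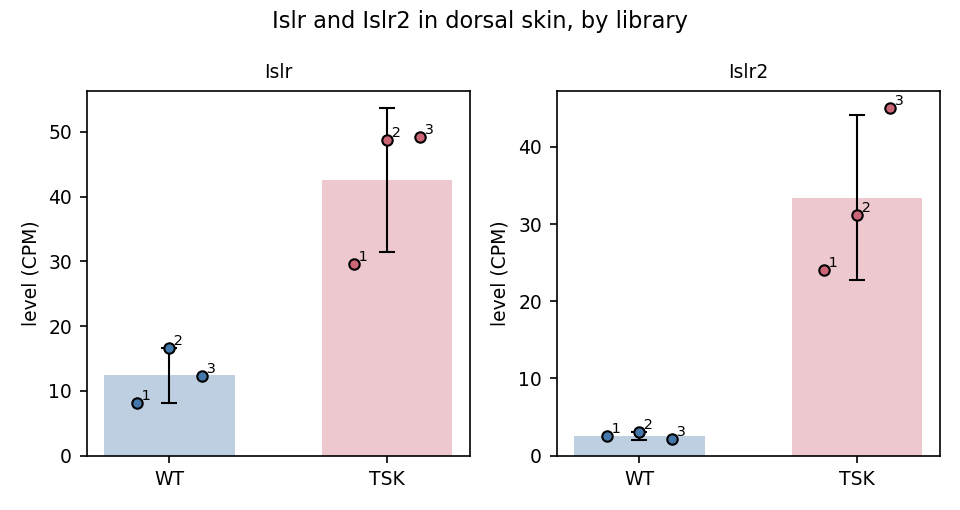
Islr (left) and Islr2 (right) in CPM on linear axes, with a point for each library (numbered by replicate), bars for group means and error bars for the SD (n = 3 mice per group). The TSK libraries lie above every WT library for both genes, at 29.6 to 49.2 CPM for Islr and 24.0 to 45.1 CPM for Islr2.

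Both genes were among the 2.71% of genes called higher. By edgeR, only Islr2 was among the 0.255% with a fold change above 2.5 at an adjusted p below 0.01, the thresholds of the study. The study applied those thresholds with DESeq2, so its own calls can differ. By log2 fold change Islr2 stood 27th and Islr 415th of the 19971 genes. Groups that do not overlap were common, since 29.1% of tested genes had all TSK libraries above all WT libraries in CPM and 2.58% had all below. Nothing is read from these counts for the pair, because that contrast chose them. The log2 fold change lay between 1.20 and 1.82 for Islr and between 3.15 and 3.66 for Islr2 when each library was left out in turn. Both genes were higher in TSK under every alternative tried, scaling by library size included.

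The balance between the genes differed between the groups. Islr2 was chosen with its large fold change known, so the ratio only describes the contrast that chose it. With counts divided by the exon length of each gene, Islr2 stood at 0.139, 0.0838 and 0.0773 of Islr in WT 1 to 3. In TSK 1 to 3 it stood at 0.368, 0.291 and 0.415 of Islr. Islr was thus the more abundant per length in all 6 libraries, and the lowest TSK ratio was 2.09 times the highest WT ratio. The means were 0.1001 ± 0.0340 and 0.358 ± 0.0626 (SD, n = 3 each), a 3.58-fold difference that needs no library size. Of the summed counts of the pair, Islr2 took 14.6% to 23.5% in WT and 39.1% to 47.8% in TSK.

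Shared reads could move this ratio, and their part was estimated from the exon lengths. If reads covered the exons of Islr evenly, 9.70 to 21.1 Islr reads would fall on the shared exons in a WT library, equal to 22.0% to 39.6% of the Islr2 count there. In TSK the same share of Islr would be 36.3 to 63.1 reads, equal to 7.36% to 10.5% of the Islr2 count. The reverse transfer, from Islr2 to Islr, came to 0.521% to 2.80% of the Islr count. These are illustrations rather than bounds, because only 1 of the 3 Islr transcripts holds the shared exons and its use in skin was not measured.

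With the expected Islr reads taken off, the Islr2 log2 fold change was 3.86 in place of 3.41 and the mean ratio was 0.0695 in WT and 0.327 in TSK. With the Islr2 reads taken off Islr, a variant added after the data were seen, the Islr log2 fold change was 1.43. With both genes added into 1 feature it was 2.02. The estimated counts were not whole, as happens where a read is divided between genes. Islr counts lay 0.007 to 0.168 from a whole number, whereas Islr2 counts lay 0.13 to 0.495 away. The sums of the pair were not whole either, as with 188.1373 in WT 1 and 1779.144 in TSK 3. Reads divided within the pair alone would leave whole sums, so the fractions do not measure that division.

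On the opposite strand, the pseudogene 1600029O15Rik overlaps 55 bases of Islr2 exons at chr9:58202897-58202951. Its level was 0.221 ± 0.161 CPM in WT and 1.16 ± 0.598 in TSK, and the log2 difference was 2.08 (SE 0.60; by edgeR the adjusted p was 0.0995). It holds 6 of the 50-base stretches of Islr2 in the other orientation. The library kit marks strand, but the strand setting of the counting is not given in the sources used here, so its reads and those of Islr2 are uncertain at that overlap.

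Islr and Islr2 were next set against the fibroblast markers of the skin, since Islr is itself a gene of stromal cells. All 16 markers were tested and 6 rose, with 0 lower by edgeR, against 2.71% and 0.681% of all genes tested. At an unadjusted p under 0.05, 13 were higher and 0 lower, against 2421 and 1577 of all 19971 genes. By DESeq2 0 of the markers were lower. The median log2 fold change was 0.93 against -0.03 over all genes tested, and all 16 were positive. Pi16, a marker of adventitial fibroblasts, rose by 3.14 (log2, SE 0.43, edgeR adjusted p = 0.012), and the surface peptidase Dpp4 rose by 2.36 (SE 0.20, adjusted p = 0.0033). The matrix protein gene Dpt rose by 1.22 and the surface marker Cd34 by 0.94. The most abundant members, Col1a1, Col3a1 and Col1a2, the chains of the main fibrillar collagens, had log2 fold changes of 1.84, 1.24 and 1.56 with adjusted p of 0.065, 0.119 and 0.082. Islr lay within the range of the list, with 4 markers above it, and Islr2 lay above all 16. Without WT 3 the number of markers that rose was 1, without TSK 2 it was 2, and without TSK 3 or WT 2 it was 3. It was 12 by DESeq2 and 14 by library size only.

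Summed over the markers, the WT libraries held 6592, 8778 and 9889 CPM in the order of their numbers, and the TSK libraries held 21391, 21075 and 48312 CPM. Relative to that sum, Islr took 0.124%, 0.190% and 0.124% in the WT libraries and 0.139%, 0.231% and 0.102% in the TSK libraries. These shares overlapped, with means of 0.146% ± 0.0377 and 0.157% ± 0.0665 (SD, n = 3). Islr2 took 0.0382%, 0.0350% and 0.0212% in WT and 0.112%, 0.148% and 0.0933% in TSK. These did not overlap, which rests on the same contrast by which Islr2 was chosen.

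Since the 3 collagens made up most of the sum, the shares were computed again without them, as a variant added after the data were seen. Islr then took 2.01%, 3.36% and 2.73% of the sum in WT and 3.502%, 4.38% and 3.27% in TSK. The groups still overlapped, by TSK 3 and WT 2. Islr2 took 0.618%, 0.620% and 0.464% in WT and 2.84%, 2.81% and 2.99% in TSK, and the 3 TSK mice lay close together at 2.88% ± 0.1001 (SD).

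**Figure D3:**
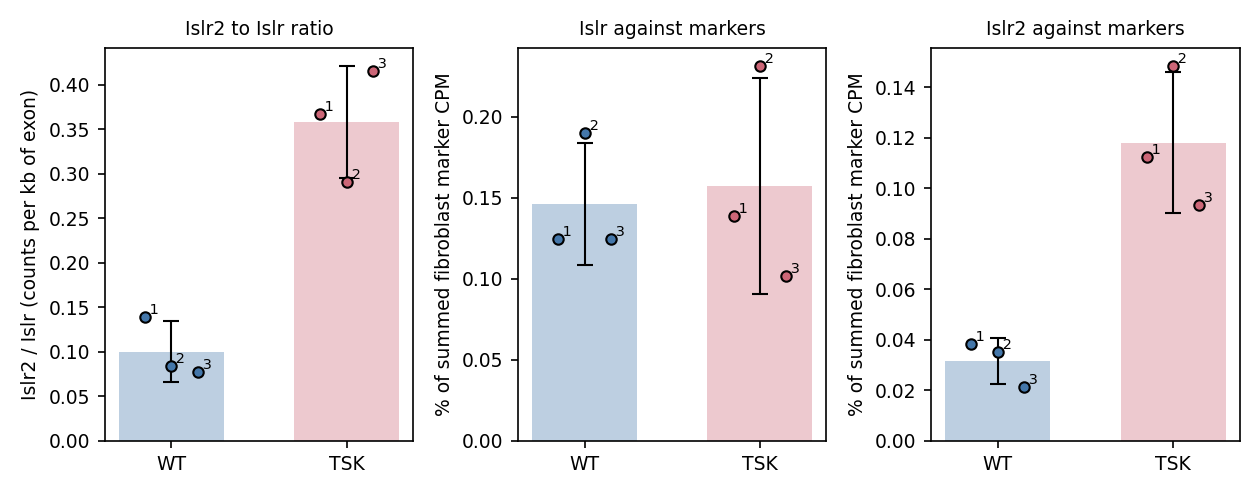
Left, the ratio of Islr2 to Islr in counts per kb of exon. Middle and right, Islr and Islr2 as a percent of the summed CPM of 16 fibroblast markers. Points are libraries numbered by replicate, bars are means and error bars the SD (n = 3 per group). The ratio and the Islr2 share separate the groups (0.0773 to 0.139 against 0.291 to 0.415, and 0.0212% to 0.0382% against 0.0933% to 0.148%), whereas the Islr shares overlap. Islr2 was chosen with this contrast known.

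Markers of other cells of the skin were examined beside them. Of all 19971 genes tested, edgeR called 2.71% higher and 0.681% lower. At an unadjusted p under 0.05 the numbers were 2421 and 1577. Adult skeletal muscle markers summed to 140922, 203973 and 193561 CPM in WT and to 138750, 130023 and 122806 CPM in TSK. Of these 10 genes 0 were called by edgeR in either direction, while at an unadjusted p under 0.05 edgeR had 6 lower and 1 higher and DESeq2 called 7 lower and 1 higher. Without WT 1 edgeR called 6 lower and 1 higher. Adipocyte markers summed to 147 to 213 CPM in WT and 497 to 2753 in TSK, the highest in TSK 2, and 3 of 8 rose. At an unadjusted p under 0.05 all 8 were higher by edgeR, 7 were called by DESeq2 or either limma fit, and 8 by library size only or with no filter. Leaving out 1 library, the number was 0 without WT 2 or WT 3, 1 without WT 1, 5 without TSK 1 and 6 without TSK 2 or TSK 3, and the median of 2.64 was 1.56 without TSK 2. Macrophage markers summed to 198 to 310 CPM in WT and 376 to 1019 in TSK, and 0 of 7 were called by edgeR, with 5 higher at an unadjusted p under 0.05 and 3 by DESeq2. Without TSK 1 edgeR called 3 higher, as it did with a replicate block, with no filter and by library size only. Either limma fit also called 3. Without TSK 3 the median of 0.98 was 0.44. Endothelial markers rose for 2 of 7 genes and hair follicle markers for 3 of the 8 tested. By library size only the numbers were 6 and 4, with limma 5 and 4, and at an unadjusted p under 0.05 by edgeR 6 and 4. Both numbers were 0 without WT 3, and the latter was 1 without WT 2, TSK 2 or TSK 3 and 2 without WT 1, while the former was 3 without TSK 3. Of 8 keratinocyte markers 0 were called, with 1 higher at an unadjusted p under 0.05 by edgeR and 0 by DESeq2, and without WT 1 edgeR called 1 higher. The part of these cells in the values of Islr and Islr2 was not tested.

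Because Islr2 is known from neurons, markers of sensory neurons and Schwann cells were examined. Of the 12 neuron markers, the nociceptor genes Scn10a, Calca and Tac1, named outside the rule given below, had mean levels of at most 0.035 CPM in either group. The part of nerves in the values of Islr2 was not tested. The summed level of the 12 neuron markers was 4.33 to 7.67 CPM in WT and 14.03 to 21.1 CPM in TSK, so that the sum was above Islr2 in each WT library and below it in each TSK library. Only 4 of the 12 passed the filter on low counts. Set beside the all-gene shares above, 2 of these rose and 0 were lower by edgeR. At an unadjusted p under 0.05, 1 was lower, and by DESeq2 0 were. Those that rose were Gap43, a growth cone protein (log2 fold change 2.28, SE 0.47, edgeR adjusted p = 0.038), and Uchl1, a ubiquitin hydrolase of neurons (1.87, SE 0.31, adjusted p = 0.020). Tubb3, a neuronal tubulin gene, went the other way at -0.85 (SE 0.37, edgeR adjusted p = 0.246). The median of the 4 was 0.94, and with no filter the median of all 12 was 1.44. With 1 library left out other members passed the filter, and the median was 0.18 over 5 genes without TSK 2 and 1.70 over 7 genes without WT 3. The number called was 0 without WT 3 and 1 without WT 2 or any single TSK library. Of the 9 markers of Schwann cells, which ensheathe the nerves of the skin, 1 rose. This was the myelin protein gene Pmp22 (0.93, SE 0.19, adjusted p = 0.036), and the median of the list was 0.54. The number called was 0 without WT 2, WT 3, TSK 2 or TSK 3 and 3 without WT 1, where the median was 0.98. With a replicate block 0 of these markers were called, and with either limma fit 2 were.

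Ret, a known partner of Islr2, stood at 12.6 ± 3.63 CPM in WT and 20.2 ± 3.02 in TSK, a log2 difference of 0.37 (SE 0.26, edgeR adjusted p = 0.488). Among the 19 genes for neurotrophins, GDNF family ligands and their receptors, 15 were tested. Of these 3 rose, with 0 lower by edgeR, against 2.71% and 0.681% of all genes tested. At an unadjusted p under 0.05, 4 were higher and 0 lower, against 2421 and 1577 of all 19971 genes. By DESeq2 0 of the list were lower. The genes that rose were the neurotrophin receptors Ntrk3 (1.16, SE 0.21, adjusted p = 0.027) and Ntrk2 (1.04, SE 0.22, adjusted p = 0.043) and the neurturin co-receptor Gfra2 (1.04, SE 0.22, adjusted p = 0.043). All were receptor genes, and no ligand gene of the list was called. The median of the list was 0.22. Without WT 2, WT 3, TSK 2 or TSK 3 the number called was 0, and the median was 0.14 without WT 1, 0.067 without WT 2 and 0.33 without WT 3.

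Known partners of Islr and the BMP pathway it acts on were examined likewise. Bmp7 differed by 0.49 on the log2 scale (SE 0.23, edgeR adjusted p = 0.274) and Lox by 0.62 (SE 0.28, adjusted p = 0.264). All 26 genes of this list were tested and 2 rose, with 0 lower by edgeR, against 2.71% and 0.681% of all genes tested. At an unadjusted p under 0.05, 7 were higher and 2 lower, against 2421 and 1577 of all 19971 genes. By DESeq2 0 of the list were lower. Id3, a target gene of BMP signalling, rose by 1.08 (SE 0.16, adjusted p = 0.015), and the ligand gene Bmp6 rose by 0.98 (SE 0.20, adjusted p = 0.039). The receptor genes Bmpr2 and Bmpr1a and the signal transducer Smad5, the most abundant members, had log2 fold changes of 0.04, -0.12 and 0.12 and were not called. The median of the list was 0.16. Without WT 3 the number called was 0, and without WT 2 or any single TSK library it was 1, and the median was 0.25 without WT 2.

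Other genes for proteins with LRRs and immunoglobulin domains served as relatives. Of 31 such genes 24 were tested and 4 rose, with 0 lower by edgeR, against 2.71% and 0.681% of all genes tested. At an unadjusted p under 0.05, 10 were higher and 2 lower, against 2421 and 1577 of all 19971 genes. By DESeq2 1 of the relatives was lower. The highest log2 fold change among those called was that of Adgra2, an adhesion receptor of blood vessel development (1.42, SE 0.22, edgeR adjusted p = 0.017). It was followed by Ntrk3 and Ntrk2, counted above, and by the matrix peroxidase Pxdn (0.74, SE 0.12, adjusted p = 0.020). Lrig1, a negative regulator of growth factor receptors, had a log2 fold change of -0.05 (adjusted p = 0.873) and Adgra3 of 0.39 (adjusted p = 0.295). The median of the list was 0.24, and 1 member lay above Islr, the synaptic adhesion gene Lrrc4c (1.72, SE 0.56, edgeR adjusted p = 0.138). Without WT 3 the number called was 0, without WT 2 or TSK 2 it was 1 and without TSK 3 it was 2, and the median was 0.52 without WT 1.

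Per length, in reads per kb of exon per 1000000 counts (RPKM), Islr stood 4th of the 33 genes in WT at 4.61 ± 1.57 and 1st in TSK at 15.8 ± 4.16 (SD, n = 3). In TSK it was followed by Lrig1 at 14.3 ± 0.806, Pxdn at 12.9 ± 1.16 and Adgra3 at 10.95 ± 2.03, and the spread of Islr covered the means of Lrig1 and Pxdn. Islr2 stood 17th in WT at 0.433 ± 0.0830 and 6th in TSK at 5.65 ± 1.81. Its neighbours in that order, Adgra2 at 6.70 ± 1.75 and Lrig3 at 5.56 ± 0.851, lay within its spread.

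**Figure D4:**
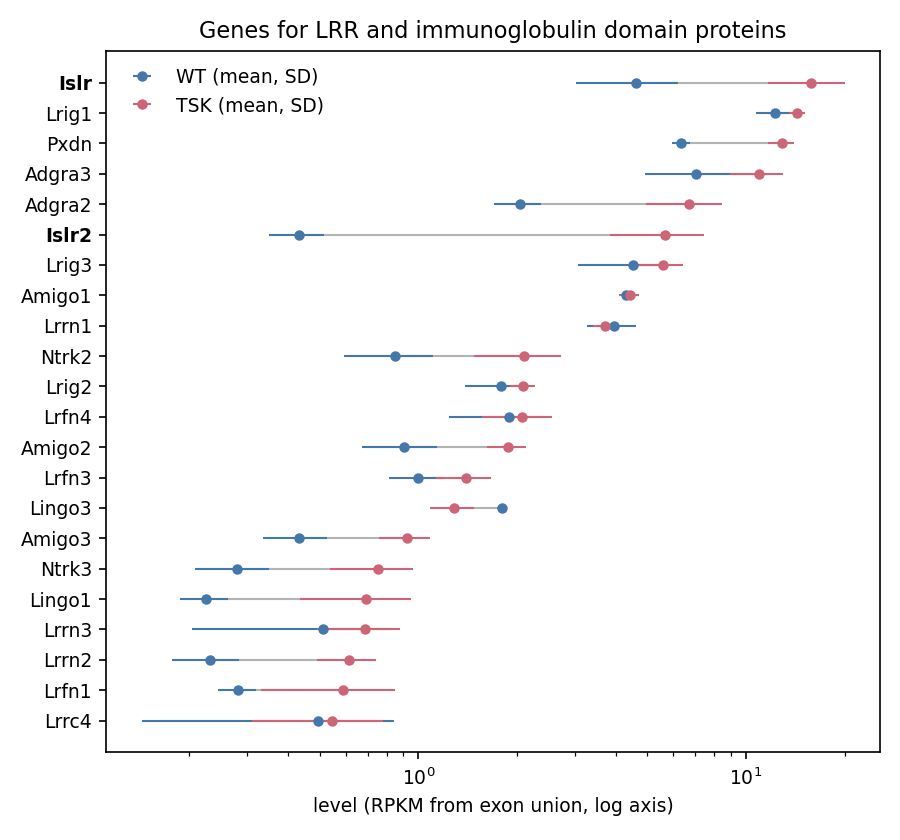
Mean level in RPKM (log axis) of Islr, Islr2 and the relatives with a TSK mean above 0.5, in WT (blue) and TSK (red), with the SD over 3 mice. Islr moves from 4.61 to 15.8 and Islr2 from 0.433 to 5.65.

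The genes around the pair were examined over 500 kb on each side. Of 28 other genes in that window 15 were tested, and 1 rose, with 0 lower by edgeR, against 2.71% and 0.681% of all genes tested. At an unadjusted p under 0.05, 5 were higher and 0 lower, against 2421 and 1577 of all 19971 genes. By DESeq2 0 of the 15 were lower. The gene that rose was Loxl1, a cross-linking enzyme of elastic fibres, at 28.7 ± 4.83 CPM in WT and 89.2 ± 27.9 in TSK, a log2 difference of 1.33 (SE 0.25, edgeR adjusted p = 0.030). The median of the 15 was 0.19 against -0.03 over all genes, and 12 were positive. Next to Islr2 lies the pseudogene 1600029O15Rik, whose log2 fold change of 2.08, given above, was the highest of the 15. The nearest protein-coding genes that do not overlap the pair, Stra6 beyond Islr and Pml beyond Islr2, had log2 fold changes of 0.50 (SE 0.40, adjusted p = 0.541) and 0.19 (SE 0.16, adjusted p = 0.579). Non-overlapping groups with TSK higher were seen for 8 of the 15, the pseudogene included, against 29.1% of all genes tested.

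The genes whose levels ran most like those of the pair over the 6 libraries were found by the root mean square difference of centred log2 CPM, among 12016 genes with a mean of at least 5 CPM. For Islr the nearest was Nid1, a basement membrane protein gene, at a difference of 0.0614. It was followed by Sod3, the extracellular superoxide dismutase (0.169), the proprotein convertase Pcsk6 (0.172), the elastic fibre gene Fbln5 (0.176) and Fndc1 (0.190). For Islr2 the nearest was Sfrp2, a secreted modulator of Wnt signalling (0.193), followed by Ildr2 (0.263), Pi16 (0.276), Wnt10b (0.379) and Lyz1 (0.398). Lyz1 has a near-identical copy, Lyz2, so its count is uncertain. The lists of 5 had no gene in common. Islr2 stood 8634th in likeness to Islr and Islr 109th in likeness to Islr2, at a difference of 0.966 from each other. The measure was not scaled to the size of a gene's change, so the larger fold change of Islr2 itself adds to that difference. Both genes lay below their mean in every WT library and above it in every TSK library. All of these profiles share the 6 libraries and their scaling factors, and the likeness follows the TSK against WT difference by which the pair was chosen. The level filter was on the mean of all libraries. Sfrp2, Ildr2, Wnt10b and Lyz1, with WT means of 4.05, 4.68, 1.64 and 1.59 CPM, and Fbln5, at 4.70 CPM, passed it through their TSK level.

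**Figure D5:**
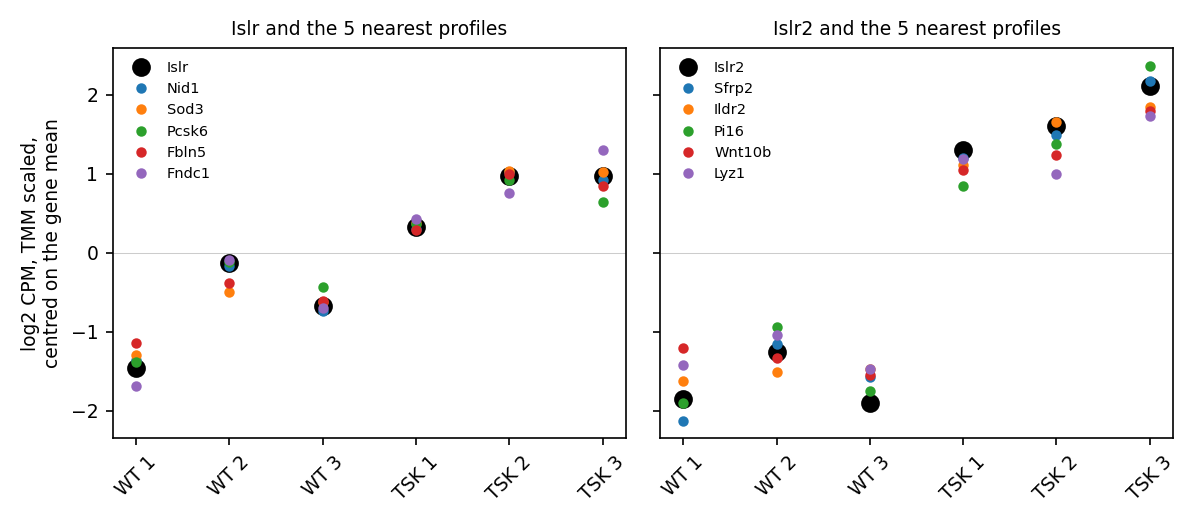
Log2 CPM with TMM scaling, centred on each gene's mean, by library, for Islr (left) and Islr2 (right) in black with their 5 nearest genes in colour. Every profile is below its mean in the WT libraries and above it in the TSK libraries, and Islr and its 5 nearest genes are each lowest in WT 1.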

How the data were processed

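RNA from dorsal skin of 3 WT and 3 TSK mice was measured, grouped by the genotype in the labels. The authors prepared stranded libraries depleted of ribosomal RNA, sequenced single-end reads of 50 bases, used bcl2fastq 2.19.1.403 per the submitters' processing notes, aligned with STAR to mm10 with Ensembl transcripts, and quantified genes in Partek Flow 11.0. The deposited table of counts holds estimated counts (43.3% to 45.4% of non-zero values of a library were within 0.001 of a whole number), in which reads that fit several genes can be divided. The deposited CPM values are counts per 1000000, scaled by the authors. How shared reads and strand were handled is not given in the sources used here.

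Estimated counts were rounded and tested with edgeR 4.0.16 in R 4.3.3 (quasi-likelihood, TMM scaling, filterByExpr, Benjamini-Hochberg adjustment), although raw counts had been planned for. Log2 fold changes are from this fit, with WT subtracted from TSK, unless a CPM ratio is named. A gene was called at an adjusted p below 0.05. No pair of libraries of a group was a repeat of another (lowest chi-square per degree of freedom 8.02). RPKM was computed here from CPM and the exon length of each gene in GENCODE M21, whose gene bounds matched the table for 99.3% of the 53186 genes with a single match. On simulated data for TSK against WT, 100% of 200 genes changed 4-fold were recovered, with 9 false calls among 19946 genes. Alternatives were DESeq2 1.42.0, limma 3.58.1 on log2(CPM + 1) and log2(CPM + 0.1), other scalings, no filter, rounding down, each library left out, a replicate block and corrections for shared reads. The error given is the SD over mice or the SE of the fit.

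The members and the gene lists were chosen with earlier results of these data known. Lists were written from general knowledge, and in each the up to 4 called genes with the largest fold change in each direction, the 3 most abundant and the known partners were eligible to be named. Scn10a, Calca, Tac1, Tubb3, Lrig3, Lrrc4c and Lyz2 were named outside that rule, after their values were seen or as background. Protein sequences and the genome were not used here. Not every eligible gene was named.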

Additional observations from a re-analysis of the deposited data

How the results depend on the processing

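The direction of Islr, Islr2 and their ratio held in every alternative, and the cause of the moved values below was not tested. For all genes, the number higher (542) and lower (136) was 1129 and 406 with DESeq2 and 1040 and 347 with no filter. It was 51 and 7 by edgeR at the thresholds of the study, which the study applied with DESeq2. The number higher was 1685 with library size only, 1761 with limma on log2(CPM + 0.1) and 1771 with limma on log2(CPM + 1). Leaving out 1 library gave 45 to 713 higher and 15 to 547 lower.

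For the relatives with LRRs and immunoglobulin domains, the median (0.24) was 0.57 with DESeq2, 0.52 with library size only, 0.53 and 0.37 with limma at pseudocounts of 0.1 and 1, and 0.53 with no filter. The number higher (4) was 8 with library size only and with either limma fit and 0 at the thresholds of the study, and the number lower (0) was 1 with DESeq2 and with no filter. For neurotrophin and GDNF family genes the median (0.22) was 0.50 with library size only, 0.50 and 0.29 with limma at 0.1 and 1, and the number higher (3) was 0 at the thresholds of the study. For the BMP list the median (0.16) was 0.44, 0.41 and 0.39 in those 3 fits, and the number higher (2) was 4 with DESeq2, likewise 4 with no filter, 6 with either limma fit and by library size only, and 0 at the thresholds of the study. For fibroblast markers the median (0.93) was 1.24 with limma at 0.1, and the number higher (6) was 12 with DESeq2, 14 by library size only and with either limma fit, 11 with no filter, and 1 at the thresholds of the study.

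Leaving out 1 library gave medians of 0.20 to 0.52, 0.067 to 0.33, 0.12 to 0.25 and 0.84 to 1.08 for these lists in turn. The numbers higher were 0 to 5, 0 to 3, 0 to 2 and 1 to 5, and the numbers lower 0 to 1 for the relatives and 0 for the others. Islr was 1.20 to 1.82, Islr2 3.15 to 3.66 and their difference (1.95) 1.80 to 2.13. The ratio was 0.0805 to 0.112 in WT and 0.329 to 0.391 in TSK. The difference was 1.52 with limma at a pseudocount of 1. The Islr value was 2.02 with Islr2 added, and the Islr2 value was 3.86 less shared reads.

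Whether the replicate numbers pair the mice is not known. Deviations of same-numbered libraries correlated at 0.0112, 0.167 and -0.0938, which cannot decide it. With a replicate block, 665 genes were higher and 129 lower, Islr was 1.51 and Islr2 3.38.

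Islr2 rests on 38.1 to 57.8 counts per WT library, which limits the precision of its WT level and of the ratio.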
